A study of Mus musculus with 8 samples.

Results

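The genes described here are the mouse Zfp genes, zinc finger genes whose symbol is Zfp followed by a number, that were expressed in Lewis Lung Carcinoma (LLC) cells in culture. Of 55487 genes in the deposited tables, 365 were protein-coding with such a symbol. The 262 expressed members were chosen by their level, a mean TPM (a level corrected for the length of the gene and for the library total) of at least 2 over all 8 libraries, and 103 lay below. The level is therefore a description and not a finding. Of the 262 members, 6 (Zfp345, Zfp950, Zfp953, Zfp455, Zfp882 and Zfp429) had a wild-type mean under 2 and passed through the ΔAgo2 libraries, and none had a ΔAgo2 mean under 2. Just above the threshold lay Zfp429, Zfp882 and Zfp953, at means of 2.04, 2.05 and 2.07 TPM, and just below lay Zfp846, Zfp667 and Zfp184, at 1.92, 1.82 and 1.79 TPM.

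The study compared 4 libraries of wild-type LLC cells with 4 libraries of ΔAgo2 LLC cells, all grown in the same medium with serum and penicillin-streptomycin, and all given the same batch number by the labels. LLC is a mouse lung carcinoma line. In the ΔAgo2 cells Ago2, the Argonaute protein that carries microRNAs and can cut their targets, was disrupted with CRISPR-Cas9 from a lentivirus with 1 guide, followed by puromycin and by sorting of single cells into clones, and the clone behind these 4 libraries is not named in the sources used here. The sources describe no such steps for the wild-type cells. In every comparison below, loss of Ago2 therefore cannot be told apart from the virus, the selection and the choice of a clone. The labels call the 4 libraries of each genotype biological replicates, but nothing says that they came from separate cultures, so the p-values measure the spread between these libraries. Ago2 was at 67.3, 75.2, 126.8 and 18.9 TPM in wild-type replicates 1 to 4 and at 104.5, 75.7, 98.4 and 79.6 TPM in ΔAgo2 replicates 1 to 4, so the groups overlapped in its transcript level. The paper reports a western blot of Ago2 protein in wild-type and ΔAgo2 LLC cells. Protein was not measured in these libraries, so within these data the genotype of each library rests on its label alone.

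A C2H2 zinc finger is a short loop of protein held by a zinc ion, and arrays of such fingers read DNA. Many Zfp proteins of rodents also carry a KRAB domain, which recruits Trim28 (KAP1) and through it the histone methyltransferase Setdb1, and these KRAB zinc finger proteins are known for silencing retroelements and for guarding imprinted loci. Their genes lie in tandem clusters and diverge quickly between species. Other Zfp genes encode transcription factors without KRAB, or proteins that act on RNA, ribosomes or ubiquitin and share little but the name. The fingers repeat at the DNA level as well, so that a seed match of a microRNA can recur along the coding sequence of 1 gene.

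The miR-181 family is a case of such recurring matches, and its mature sequences are shown because Argonaute proteins load them. The 4 mouse members share a seed, bases 2 to 8, given in capitals (mature sequences from RefSeq, GRCm38.p6; miR-181a-5p at chr1:137966468-137966490 and miR-181b-5p at chr1:137966650-137966673 on the plus strand, miR-181c-5p at chr8:84178924-84178945 and miR-181d-5p at chr8:84178759-84178781 on the minus strand).
miR-181a-5p: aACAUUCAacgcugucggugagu
miR-181b-5p: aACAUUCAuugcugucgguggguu
miR-181c-5p: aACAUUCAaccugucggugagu
miR-181d-5p: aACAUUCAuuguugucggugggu

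The match to this seed in a transcript is TGAATGT, searched on the sense strand only. It stood in the coding sequence of 129 of the 262 expressed Zfp genes (49.2%), against 11.3% of all 22479 genes with a coding sequence in the annotation, whose coding lengths differ. A KRAB pattern, a stretch of sequence like that of the KRAB domain, was found in the translated transcripts of 138 members, of which 95 held the match, and of the other 124 members 34 did. The largest numbers of coding matches were 16 in Zfp994, 15 in Zfp442 and 14 each in Zfp930 and Zfp970. The distances between neighbouring matches were 84 bases (28 codons) or a multiple of it in all 13 cases in Zfp970 and in 14 of 15 in Zfp994. In Zfp442 this held for 8 of 14 distances and in Zfp930 for 5 of 13, and in both the smallest distance was 9 bases. The first 3 matches of Zfp994 and the first match of each of the other three are printed with 10 bases on either side, the match in capitals (GENCODE transcripts, GRCm38). In the window of Zfp930 a second match starts 9 bases after the first and is left in lower case.
Zfp994, chr17:22201699-22201725, minus strand: tgaaatcttaTGAATGTcatgagcttg
Zfp994, chr17:22201393-22201419, minus strand: acaaatgtagTGAATGTgccaaatgtt
Zfp994, chr17:22201309-22201335, minus strand: acaaatgtaaTGAATGTgacaaatcct
Zfp442, chr2:150409563-150409589, minus strand: ataagattaaTGAATGTggtaaagcct
Zfp930, chr8:69228034-69228060, plus strand: agaaagcctaTGAATGTaatgaatgtg
Zfp970, chr2:177475017-177475043, plus strand: agaaaccctaTGAATGTaaccactgtg

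The members spanned a wide range of levels. Their median was 9.01 TPM, 123 of the 262 had a mean of at least 10 TPM, and 8 had a mean of at least 50 TPM. These 8 were Zfp740, Zfp598, Zfp106, Zfp207, Zfp703, Zfp706, Zfp91 and Zfp692, and a KRAB pattern was found in none of them. Zfp740 was the highest, at 140 ± 38.0 TPM (SD, n = 4) in wild-type and 124 ± 20.8 TPM (SD, n = 4) in ΔAgo2 cells. Zfp598, a ubiquitin ligase that senses collided ribosomes, followed at 111 ± 28.7 and 108 ± 20.04 TPM, Zfp106, an RNA-binding protein, at 90.8 ± 47.9 and 110 ± 9.62 TPM, and Zfp207 (BuGZ), a microtubule-binding protein of the spindle, at 83.4 ± 53.5 and 98.0 ± 17.2 TPM. In this order, neighbours differed by less than their spread among the wild-type libraries.

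The KRAB pattern found in 138 of the 262 members was also found in 71 of the 103 genes below the threshold. A gene in which the pattern was not found can still encode a KRAB domain. The members with the pattern had lower levels, a median of 6.83 TPM and a maximum of 49.53 TPM (Zfp52), against a median of 16.1 TPM and a maximum of 132 TPM for those without it. They had a median of 12 C2H2 fingers against 7.5, and their transcripts had a median GC content of 41.3% against 51.3%. The median GC content of all 14228 genes tested was 50.2%. At least 1 finger of the C2H2 pattern was found in 257 members, and the 5 without were Zfp36, Zfp703, Zfp365, Zfp330 and Zfp839. Zfp142 had the most, 36.

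**Figure D1:**
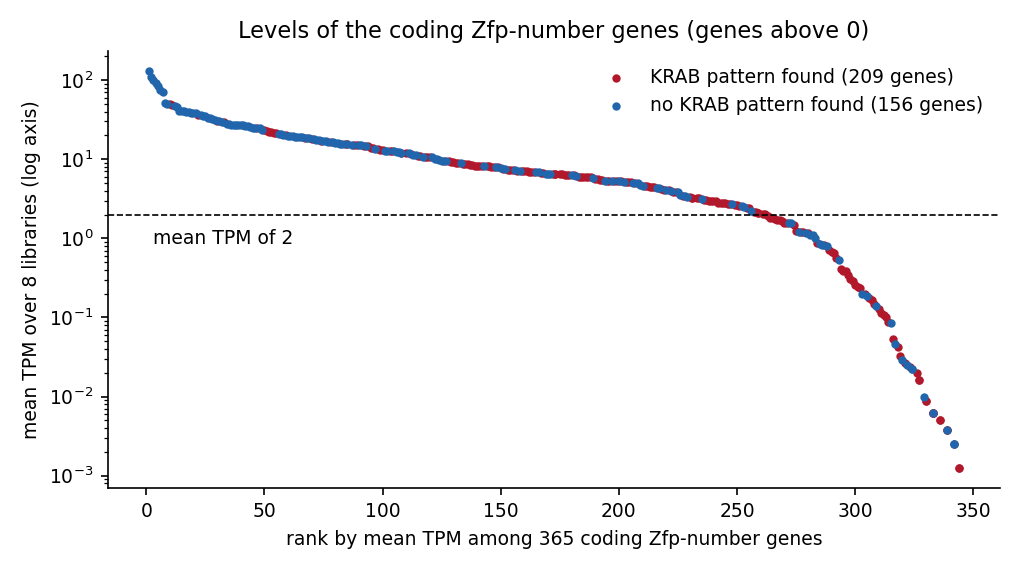
Mean TPM over the 8 libraries (log axis) of each coding Zfp-number gene with a value above 0, ranked, with genes with a KRAB pattern in red, the others in blue and the threshold of 2 TPM dashed. The 8 genes of at least 50 TPM are all blue, and genes with the pattern spread from 49.53 TPM down to below the threshold.

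The libraries totalled 39628101 to 68530912 counts. The 262 members took 0.613% to 0.774% of the counts in 7 libraries and 0.398% in wild-type replicate 4. That library stood apart. Summed over the members, TPM was 3735, 4923, 4386 and 2499.6 in wild-type replicates 1 to 4 and 4169, 3863, 4097 and 4369 in ΔAgo2 replicates 1 to 4. The difference lay largely in the genes with a KRAB pattern, whose sum was 1337, 1697, 1493 and 372 TPM in the wild-type and 1247, 1106, 1386 and 1470.5 TPM in the ΔAgo2 libraries. The genes without it summed to 2398, 3226, 2893 and 2127 TPM in the wild-type and 2922, 2757, 2710.45 and 2899 TPM in the ΔAgo2 libraries. In wild-type replicate 4, 87 members were under 1 TPM, against 0 to 3 in the other libraries.

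Against the ΔAgo2 mean on the log2 CPM scale (counts scaled to the library total with TMM factors, plus 0.1), the median member with a KRAB pattern was at 0.08, 0.33 and -0.03 in wild-type replicates 1 to 3 and at -2.10 in wild-type replicate 4. The median member without the pattern was at -0.07 in that library, and the median of all genes tested was at -0.06. Wild-type replicate 4 had the lowest value of the 8 libraries for 179 of the 262 members (68.3%) and the highest for 60 (22.9%), where over all genes tested these shares were 37.1% and 35.4%. Across the 262 members, which share the library, the deviation of wild-type replicate 4 from the ΔAgo2 mean followed the GC content of the transcripts with Spearman's rho = 0.89, against -0.06, -0.27 and -0.02 in wild-type replicates 1 to 3. Across all genes tested rho was 0.73 in wild-type replicate 4. There the members with GC below 42% were at a median of -2.91 and those with at least 54% at 1.12. The other genes tested in these ranges were at -1.99 and 1.18. The 46 genes with a KRAB pattern, a mean of at least 2 TPM and another name were at -2.44. The low values in this library were thus not confined to the members or to genes with a KRAB pattern. The log2 fold changes of genes and groups below are given with and without this library. In bulk RNA, fewer cells that express a gene and less of its RNA per cell cannot be told apart.

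**Figure D2:**
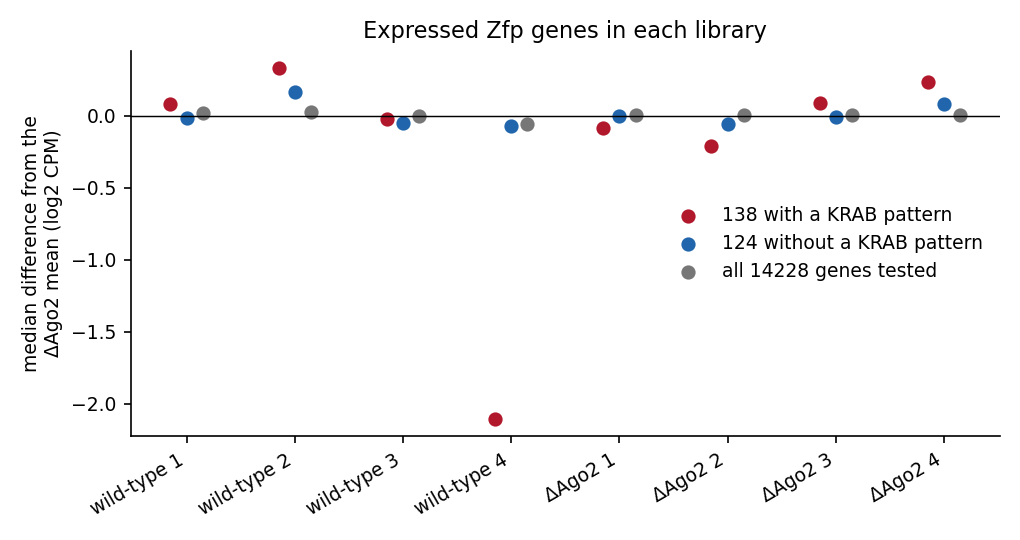
Median difference from the mean of the ΔAgo2 libraries (log2 CPM) in each of the 8 libraries, for members with a KRAB pattern (red), members without (blue) and all genes tested (grey). All points lie between -0.21 and 0.33 except the red point of wild-type replicate 4 at -2.10.

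With edgeR no expressed Zfp gene passed an adjusted p of 0.05 between ΔAgo2 and wild-type cells, and with DESeq2 7 did, without wild-type replicate 4 only. Of the 262 members 0 were called with all 8 libraries (edgeR's quasi-likelihood test, Benjamini-Hochberg over 14228 genes), where 0.295% of all genes were called, and 0 without wild-type replicate 4, where 0.777% of 14541 genes were called. The smallest adjusted p among them was 0.664 with all libraries and 0.0884 without wild-type replicate 4 (edgeR in both fits). At an unadjusted p under 0.05, 1 member was higher in ΔAgo2 cells with all libraries (2.72% of all genes) and 1 was lower (4.62% of all genes). Without wild-type replicate 4, 4 were higher (5.52% of all genes) and 19 were lower (7.04% of all genes). DESeq2 called 0 members with all libraries, where it called 2.23% of all genes. Without wild-type replicate 4 the 7 that it called were 2 higher and 5 lower members, at an adjusted p of 0.00209 to 0.0454 (DESeq2), where it called 3.79% of all genes.

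The direction of the members as a whole depended on the fit, and not only on whether wild-type replicate 4 was in it. Their log2 fold changes of ΔAgo2 over wild-type ran from -1.08 (Zfp213) to 1.24 (Zfp273), with a median of 0.04 where the median of all genes tested was -0.11. Without wild-type replicate 4 they ran from -1.22 (Zfp57) to 0.88 (Zfp273), and the median of the members was -0.08, beside -0.03 for the same genes as before. The members above 0 numbered 138 with all libraries and 100 without that library, and 100 of the 262 changed direction between the fits. For the members with a KRAB pattern the median moved from 0.11 to -0.14, and for those without from -0.12 to -0.05. The 46 genes with a KRAB pattern, a mean of at least 2 TPM and another name had medians of 0.22 and -0.11 in the same order. With wild-type replicate 4 kept, the median of the members was below 0 in some other fits and above 0 in others. It was -0.0088 without ΔAgo2 replicate 3, -0.03 without ΔAgo2 replicate 4 and 0.12 without wild-type replicate 3.

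**Figure D3:**
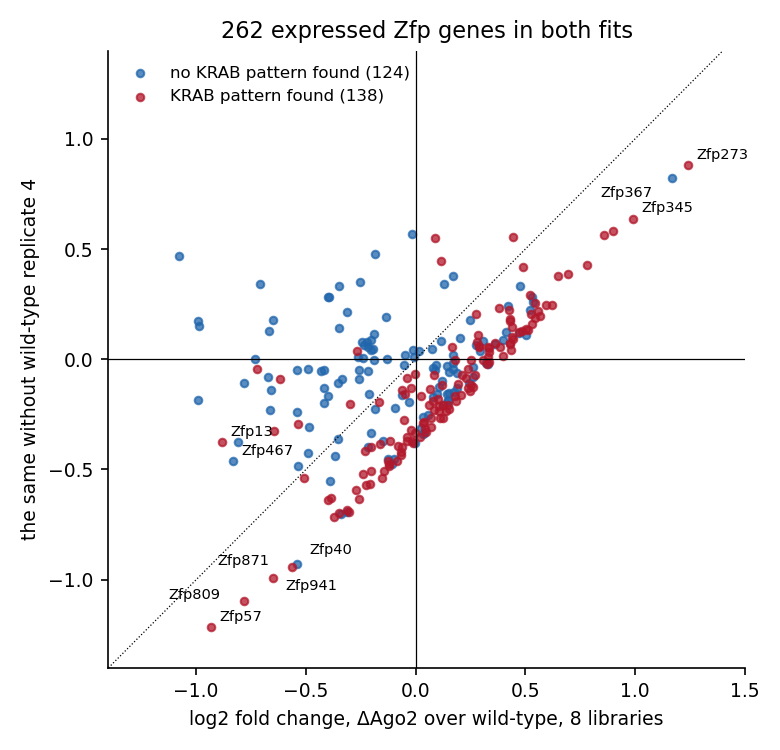
Log2 fold change of ΔAgo2 over wild-type for each of the 262 members with all 8 libraries (horizontal) and without wild-type replicate 4 (vertical), with the dotted line of equal values. Of the 138 genes with a KRAB pattern (red) 128 lie below that line, Zfp367, Zfp273 and Zfp345 are above 0 in both fits, and Zfp57, Zfp809, Zfp871, Zfp941 and Zfp40 are below 0 in both.

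Between libraries, 4 members had all 4 ΔAgo2 values above all 4 wild-type values in CPM (3.09% of all genes) and 5 had them all below (2.98% of all genes). Zfp367 (ENSMUSG00000044934.13, chr13:64133018-64153202 of GRCm38, minus strand), a C2H2 zinc finger gene without a KRAB pattern, was at 20.8, 30.9, 31.6 and 2.36 TPM in the wild-type and at 59.9, 46.7, 41.0 and 53.2 TPM in the ΔAgo2 libraries. The lowest ΔAgo2 library was above the highest wild-type library, and wild-type replicate 4 was far below the other three. Zfp367 differed by 1.17 on the log2 scale (standard error 0.52, edgeR adjusted p = 0.674) with all libraries and by 0.82 (standard error 0.18, edgeR adjusted p = 0.0884) without wild-type replicate 4. Over the 24 alternatives its adjusted p ran from 0.00484, with DESeq2 without wild-type replicate 4, to 0.979.

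Zfp273 (ENSMUSG00000030446.17, chr13:67813740-67827002, plus strand), a gene with a KRAB pattern and 15 fingers, was at 3.65, 4.71, 3.07 and 0.20 TPM in the wild-type and at 8.55, 6.04, 6.02 and 8.12 TPM in the ΔAgo2 libraries. The groups did not overlap with or without wild-type replicate 4. Its log2 fold change was 1.24 (standard error 0.61, edgeR adjusted p = 0.706), and 0.88 (standard error 0.26, edgeR adjusted p = 0.203) without that library, and the adjusted p ran from 0.00963, with DESeq2 without wild-type replicate 4, to 0.979 over the alternatives. Zfp345 was at 1.91, 2.60, 1.73 and 0.13 TPM against 3.73, 3.12, 3.15 and 3.20 TPM, a log2 fold change of 0.99 (edgeR adjusted p = 0.739) that was 0.64 without wild-type replicate 4. Zfp345 had a wild-type mean of 1.59 TPM and is a member only through its ΔAgo2 libraries, so the rule itself favoured this direction, and its place among the 4 supports nothing. Zfp217, a transcription factor that is amplified in breast cancer, was at 40.9, 53.97, 39.8 and 14.5 TPM against 55.9, 50.2, 53.3 and 56.8 TPM. Its values overlapped in TPM but not in CPM, and its log2 fold change was 0.42 (edgeR adjusted p = 0.742) and 0.24 without wild-type replicate 4.

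The 5 members whose ΔAgo2 values all lay below those of the wild-type were Zfp13, Zfp467, Zfp629, Zfp707 and Zfp142. Zfp13 (ENSMUSG00000062012.14, chr17:23575844-23599487, minus strand) was at 24.2, 24.6, 20.7 and 39.5 TPM in the wild-type and at 17.1, 17.4, 19.5 and 19.4 TPM in the ΔAgo2 libraries, and here wild-type replicate 4 was the highest of the 8. The log2 fold change of Zfp13 was -0.88 (standard error 0.38, edgeR adjusted p = 0.664), and -0.37 (edgeR adjusted p = 0.453) without that library. Zfp467 went from 5.19 ± 1.08 TPM (SD, n = 4) to 3.56 ± 0.596 TPM, with log2 fold changes of -0.83 and -0.46 in the fits with and without wild-type replicate 4. The transcripts of both were rich in GC, at 59.7% and 57.9%. Zfp629, Zfp707 and Zfp142 had log2 fold changes of -0.49, -0.64 and -0.37 with all libraries and of -0.42, -0.33 and -0.44 without wild-type replicate 4. The means of Zfp142, the gene with most fingers, were 11.4 ± 4.88 and 9.72 ± 0.990 TPM. In TPM only Zfp13 of these 5 kept the groups apart, and the other four overlapped.

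Without wild-type replicate 4, 9 members lay wholly above the wild-type in CPM (5.97% of all genes) and 22 wholly below (6.09% of all genes). The genes that DESeq2 called in these 7 libraries were Zfp367 and Zfp273, which were higher, and Zfp809, Zfp941, Zfp871, Zfp40 and Zfp57, which were lower in ΔAgo2 cells. This fit was added after the data were seen. edgeR called none of the 7 in the same libraries. Zfp871 (ENSMUSG00000024298.15, chr17:32765496-32788287, minus strand) was at 39.5, 57.9, 72.0 and 1.98 TPM in the wild-type and at 37.2, 24.2, 31.2 and 27.5 TPM in the ΔAgo2 libraries. Wild-type replicates 1 to 3 were above every ΔAgo2 library and wild-type replicate 4 was below all of them. For Zfp871 the log2 fold change was -0.56 (standard error 0.66) with all libraries and -0.94 (standard error 0.22, edgeR adjusted p = 0.113) without wild-type replicate 4. Zfp941 had log2 fold changes of -0.65 and -0.99 in the same order, and Zfp40 of -0.54 and -0.93. Zfp40 was at 0.12 TPM in wild-type replicate 4 and at 4.76 to 6.68 TPM in the other wild-type libraries.

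**Figure D4:**
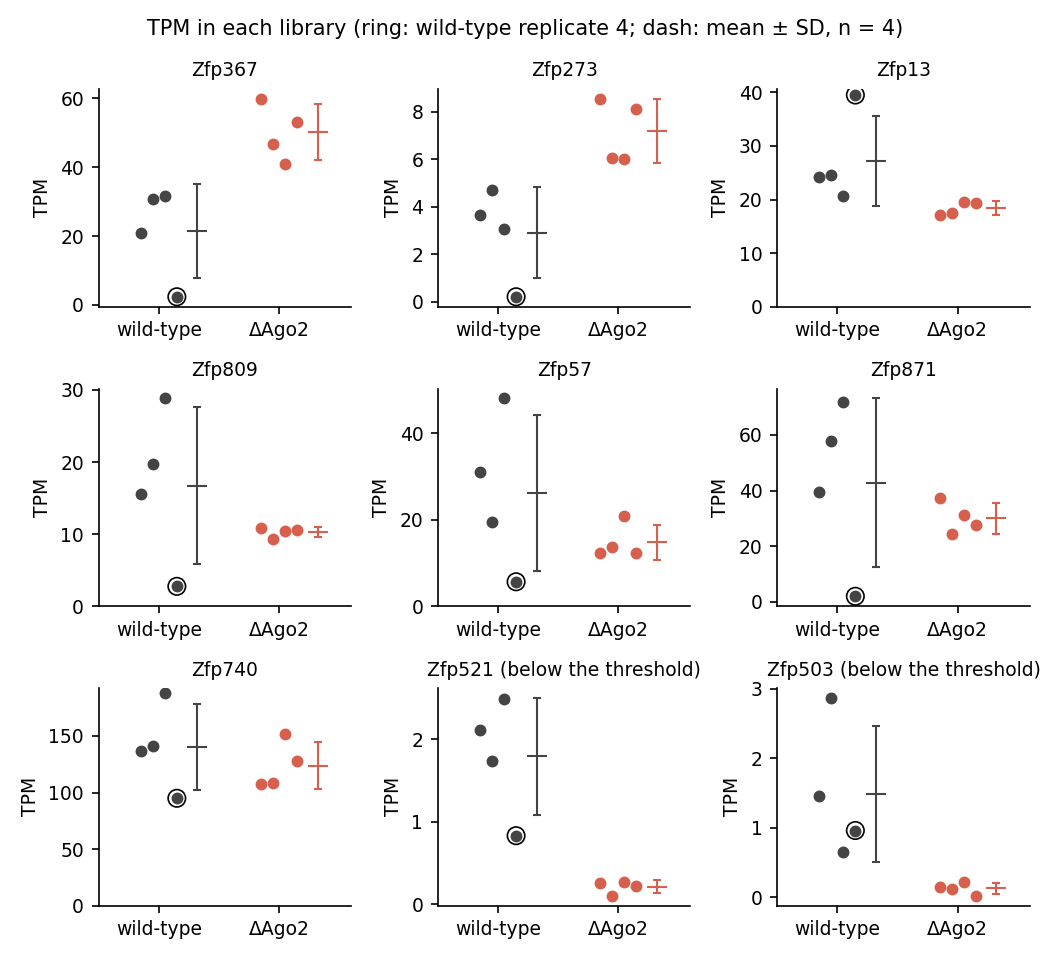
TPM of 9 Zfp genes in each wild-type (dark) and ΔAgo2 (orange) library, with wild-type replicate 4 ringed and the mean ± SD (n = 4) beside the points. Zfp367 and Zfp273 show all ΔAgo2 points above the wild-type, Zfp13, Zfp521 and Zfp503 all below, and in Zfp809, Zfp57 and Zfp871 the ringed point lies under the ΔAgo2 libraries.

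Among the KRAB zinc finger genes known for binding retroelements or imprinted loci, 5 of 7 were expressed (Zfp57, Zfp445, Zfp809, Zfp932 and Zfp568), and Zfp708 and Zfp819 reached at most 0.03 and 0.10 TPM. None of the 5 passed the edgeR test in either fit. At an unadjusted p under 0.05 there were 0 with all libraries, and 3 lower without wild-type replicate 4 (Zfp809, Zfp57 and Zfp445), where 7.04% of all genes were lower. Zfp809 (ENSMUSG00000057982.8, chr9:22225714-22243354, plus strand), which binds the primer binding site of murine leukaemia virus and silences its endogenous copies, was at 15.6, 19.7, 28.9 and 2.75 TPM in the wild-type and at 10.8, 9.29, 10.4 and 10.5 TPM in the ΔAgo2 libraries. The ΔAgo2 values lay close together, below wild-type replicates 1 to 3 and above wild-type replicate 4. On the log2 scale the difference of Zfp809 was -0.78 (standard error 0.48, edgeR adjusted p = 0.739), and -1.10 (standard error 0.24, edgeR adjusted p = 0.0948) without wild-type replicate 4. Over the alternatives its adjusted p ran from 0.00209, with DESeq2 without wild-type replicate 4, to 0.979.

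Zfp57 (ENSMUSG00000036036.15, chr17:37001163-37010635, plus strand), which keeps DNA methylation at imprinted control regions, was at 31.1, 19.5, 48.2 and 5.64 TPM in the wild-type and at 12.25, 13.6, 20.8 and 12.25 TPM in the ΔAgo2 libraries. ΔAgo2 replicate 3 was above wild-type replicate 2, so the groups overlapped also without wild-type replicate 4. The log2 fold change of Zfp57 was -0.93 (standard error 0.49, edgeR adjusted p = 0.718), and -1.22 (standard error 0.35, edgeR adjusted p = 0.197) without that library. Zfp445, which acts at imprinted loci beside Zfp57, had 30.2 ± 21.3 TPM (SD, n = 4) in wild-type and 28.7 ± 3.07 TPM in ΔAgo2 cells, with log2 fold changes of -0.12 and -0.48 in the 2 fits, and the direction turned in 6 of the 24 alternatives. Zfp932 had 5.87 ± 4.76 and 8.77 ± 1.33 TPM, with log2 fold changes of 0.54 and 0.19. Zfp568, which represses a placental transcript of Igf2, had 6.83 ± 5.05 and 9.63 ± 2.48 TPM, with log2 fold changes of 0.43 and 0.18.

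All 11 genes of the list for RNA, ribosomes and ubiquitin were expressed, and none passed the edgeR test or had an unadjusted p under 0.05 in either fit. Their median log2 fold change was 0.10 with all libraries and -0.06 without wild-type replicate 4. Zfp36 (tristetraprolin), which brings mRNAs with AU-rich elements to decay, had 34.6 ± 25.5 TPM (SD, n = 4) in wild-type and 36.2 ± 7.88 TPM in ΔAgo2 cells. With all libraries the log2 fold change of Zfp36 was -0.09 (standard error 0.40, edgeR adjusted p = 0.964), and without wild-type replicate 4 it was -0.22 (edgeR adjusted p = 0.851). Zfp91, a ubiquitin ligase, had 56.2 ± 29.9 and 86.5 ± 9.27 TPM, with log2 fold changes of 0.53 and 0.28 with and without wild-type replicate 4. Zfp593, a factor of ribosome biogenesis, had 33.1 ± 11.1 and 23.3 ± 4.32 TPM, with log2 fold changes of -0.81 and -0.38.

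Of the 17 transcription factors without KRAB on the list, 14 were expressed and none of these passed the edgeR test in either fit. At an unadjusted p under 0.05 there were 0 with all libraries and 1 without wild-type replicate 4, Zfp516, where 7.04% of all genes were lower. The log2 fold change of Zfp516 was -0.39 with all libraries and -0.55 without that library. Among them Zfp143, which binds promoters, had 24.7 ± 14.3 TPM (SD, n = 4) in wild-type and 29.2 ± 3.96 TPM in ΔAgo2 cells, with log2 fold changes of 0.15 and -0.16 with and without wild-type replicate 4. Zfp281 had 21.8 ± 13.9 and 32.6 ± 7.12 TPM, with log2 fold changes of 0.52 and 0.23. The 3 below the threshold of the rule were Zfp423, Zfp503 and Zfp521. The values of Zfp521 and Zfp503, both detected in the wild-type libraries, follow.

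Zfp521, a transcription factor of progenitor cells, was at 2.11, 1.74, 2.49 and 0.83 TPM in the wild-type and at 0.25, 0.10, 0.27 and 0.22 TPM in the ΔAgo2 libraries. The lowest wild-type library, replicate 4, was above the highest ΔAgo2 library. The counts were 236, 221, 344 and 85 against 29, 8, 23 and 23. Zfp521 fell by 3.23 on the log2 scale (standard error 0.47, edgeR adjusted p = 0.0247), and by 3.37 (standard error 0.42, edgeR adjusted p = 0.0172) without wild-type replicate 4. Over the alternatives its adjusted p ran from 2.4e-15, with DESeq2 without wild-type replicate 4, to 0.254, with limma on log2(TPM + 0.1). With all libraries edgeR called only Zfp521 among the 44 genes below the threshold that were tested, beside 0.295% of all genes. DESeq2 called 3 of the genes below the threshold with all libraries, beside 2.23% of all genes. Zfp503, a repressor whose protein resembles Zfp703, was at 1.46, 2.87, 0.65 and 0.96 TPM against 0.15, 0.12, 0.22 and 0.02 TPM. The log2 fold change of Zfp503 was -3.70 (standard error 0.70, edgeR adjusted p = 0.0765), and -3.72 (standard error 0.71, edgeR adjusted p = 0.0598) without wild-type replicate 4. Over the alternatives its adjusted p ran from 1.3e-06 with DESeq2 to 0.263.

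Without wild-type replicate 4, edgeR called 2 of the 46 Zfp genes below the threshold that were tested, Zfp521 and Zfp286. It called 0.777% of all genes there. Zfp286, named here after its values were seen, was counted 2, 1, 0 and 2 times in the wild-type and 27, 31, 11 and 19 times in the ΔAgo2 libraries. The groups did not overlap, and the highest library was at 0.33 TPM. Its fitted log2 fold change was 4.07 (standard error 0.75, edgeR adjusted p = 0.0677) with all libraries and 4.60 (standard error 0.78, edgeR adjusted p = 0.0388) without wild-type replicate 4, values that depend on the few wild-type counts. Of the 103 genes below the threshold, 20 had no count in any library.

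The 25 genes on a list of corepressors and other silencing genes, Trim28 and Setdb1 among them, were all expressed. Of these, 0 passed the edgeR test in either fit or were called by DESeq2. At an unadjusted p under 0.05 there were 0 with all libraries, and 1 higher and 1 lower without wild-type replicate 4, beside 5.52% and 7.04% of all genes. Trim28, the scaffold that KRAB domains bind, was at 204, 358, 192 and 706 TPM in the wild-type and at 293, 305.9, 219 and 271 TPM in the ΔAgo2 libraries. Wild-type replicate 4 was the highest of the 8, the library in which 122 of the 138 members with a KRAB pattern had their lowest CPM. The transcript of Trim28 has a GC content of 59.6%, and those of the members with the pattern have a median of 41.3%. In that library the other tested genes with GC of at least 54% were at a median of 1.18, and those below 42% at -1.99 (log2 CPM against the ΔAgo2 mean). A link between Trim28 and these members was not tested. For Trim28 the log2 fold change was -0.81 (standard error 0.52, edgeR adjusted p = 0.740), and 0.10 (standard error 0.20, edgeR adjusted p = 0.876) without wild-type replicate 4. With the GC correction and all libraries it was -0.21 (edgeR adjusted p = 0.847). Setdb1 had 31.2 ± 15.03 and 37.3 ± 4.52 TPM (SD, n = 4), with log2 fold changes of 0.14 and 0.00.

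The position of the members was uneven. Chromosome 7 held 66 of the 262, chromosome 17 held 39 and chromosome 13 held 23, and 157 lay in clusters of at least 3 coding Zfp-number genes with neighbouring starts within 500 kb. Neighbours in a cluster are paralogs and can share reads, so their values are not independent, and how the counting treated such reads is not given in the sources used here. In 5 clusters at least 10 members were expressed. The largest, on chr17:21008903-23599487 (GRCm38), had 22 expressed of 23 genes and a median log2 fold change of 0.05 with all libraries and -0.29 without wild-type replicate 4, with 19 of 22 below 0, where 7692 of all 14228 genes were below 0. With the GC correction its median without wild-type replicate 4 was -0.07. The next on this chromosome, chr17:32765496-33631779, had 10 expressed of 11 genes, Zfp871 among them. Its median was -0.25 with all libraries and -0.51 without wild-type replicate 4, where all 10 were below 0 and 4 were lower at an unadjusted p under 0.05 (7.04% of all genes). With the GC correction this median was -0.41.

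The cluster on chr13:67038596-67827002 had 14 expressed of 19 genes, all with a KRAB pattern and Zfp273 among them. All 14 were above 0 with all libraries, at a median of 0.46, and 11 of 14 without wild-type replicate 4, at a median of 0.16 that was 0.36 with the GC correction. Of all 14228 genes 5864 were above 0 with all libraries and 6536 without wild-type replicate 4. For any of the 14 that passed only through the ΔAgo2 libraries, the rule itself favoured this direction. The count of 14 above 0 therefore supports nothing about the cluster. By library, its median member was at -0.19, 0.32 and -0.66 in wild-type replicates 1 to 3 and at -2.75 in wild-type replicate 4, against the ΔAgo2 mean in log2 CPM. Wild-type replicates 1 to 3 thus lay on both sides of the ΔAgo2 libraries. The clusters on chromosome 7, chr7:29768552-30169750 with 13 and chr7:127233061-127885996 with 10 expressed members, had medians of 0.06 and -0.28 with all libraries and of -0.19 and 0.01 without wild-type replicate 4, or -0.18 and -0.03 there with the GC correction. The latter had a median GC content of 53.8%, and its median member was at 0.79 in wild-type replicate 4.

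Split by GC content, the medians of the members and of the other genes stood in descending order from the lowest to the highest range with all libraries and in ascending order without wild-type replicate 4. With all libraries the 95 members with GC below 42% had a median log2 fold change of 0.19 and the 52 members with GC of at least 54% had -0.38, beside 0.13 and -0.44 for the other genes tested in these ranges. In the ranges between, from 42% to 48% and from 48% to 54%, the members had 0.10 and -0.04 and the other genes 0.10 and -0.12. Without wild-type replicate 4 the medians were -0.13 and 0.02 for the members and -0.15 and 0.01 for the other genes, and in the ranges between they were -0.12 and -0.08 for the members and -0.06 and -0.01 for the other genes. Once each library was corrected for the GC content of the genes, the median of all members was -0.02, and it was -0.02 both with and without a KRAB pattern. In the same fit all genes tested had a median of -0.10, so the members still lay above them. The 46 genes with a KRAB pattern and another name had 0.145. With this correction and without wild-type replicate 4 the medians were -0.06 for all members, -0.07 with a KRAB pattern and -0.06 without. There the median of all genes tested was -0.04.

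**Figure D5:**
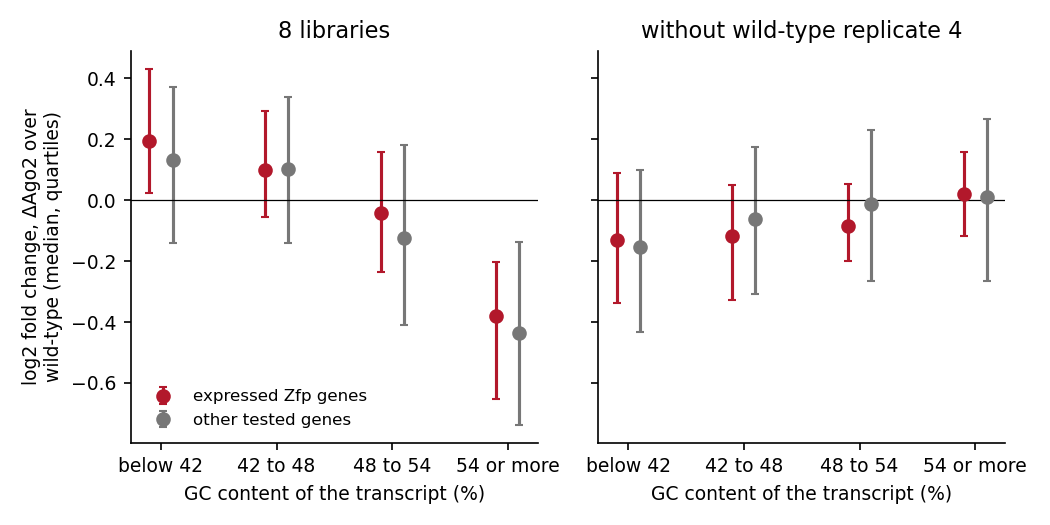
Median log2 fold change of ΔAgo2 over wild-type, with quartiles as bars, in 4 ranges of transcript GC content for the members (red) and the other genes tested (grey), with all 8 libraries on the left and without wild-type replicate 4 on the right. On the left the medians of the members go from 0.19 to -0.38, and on the right they stay between -0.13 and 0.02.

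By number of miR-181 matches, the members are set beside the other genes with as many matches. The 61 members with 4 or more matches anywhere in the transcript, with a median GC content of 40.02%, had a median log2 fold change of 0.19 with all libraries and -0.15 without wild-type replicate 4. The 132 other genes tested with 4 or more matches had 0.22 and -0.10. A KRAB pattern was found in 63 of these other genes, and their median GC content was 40.4%. The 86 members with 1 to 3 matches had 0.06 and -0.13, beside 0.02 and -0.06 for the other genes tested with 1 to 3. The 115 members without a match had -0.19 and -0.04, beside -0.16 and -0.02 for the other genes tested without a match. No member of any of these groups passed the edgeR test in either fit. Zfp40, with 11 coding matches, had log2 fold changes of -0.54 with all libraries and -0.93 without wild-type replicate 4. Zfp345, with 9, had 0.99 and 0.64, and for it the rule itself favoured this direction. These genes are examples, and an effect of the matches was not tested. The mature microRNAs were not measured in these libraries.

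As to the cells themselves, the epithelial genes Krt8 and Krt18 ran from 66.8 to 741 TPM and from 179 to 928 TPM, and Vim, a mesenchymal gene, from 2217 to 4193 TPM. Epcam and Cdh1 reached at most 0.03 and 0.12 TPM, and the lung epithelial genes Nkx2-1, Sftpc and Scgb1a1 at most 0.05 TPM. Of the markers of other cell types, Ptprc and Cd3e of leukocytes reached at most 0.01 TPM and Pecam1 and Cdh5 of endothelium at most 0.17 and 0.57 TPM, while Cd68, on the leukocyte list, ran from 12.8 to 94.6 TPM. Of the 3 fibroblast genes, Pdgfra ran from 2.66 to 28.9 TPM and Pdgfrb and Col1a1 reached at most 2.78 and 1.47 TPM. Within a genotype, the median member had an SD of 1.18 on the log2(TPM + 0.1) scale among the wild-type libraries, 0.42 without wild-type replicate 4 and 0.23 among the ΔAgo2 libraries.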

How the data were processed

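RNA was measured in 4 wild-type and 4 ΔAgo2 libraries of cultured LLC cells, made with a stranded mRNA kit. The authors aligned reads first to a set of rRNAs and next to mm10 (the submitters' processing notes name STAR), counted them per gene with featureCounts and deposited these counts unnormalized. They also deposited TPM values. The annotation release and strand setting are not given in the sources used here, so overlapping or antisense genes could share reads.

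Identifiers without version were matched to GENCODE M21 (GRCm38), and 93 had no match. The members, gene lists and tests were chosen with earlier results of these data known. Counts were tested with edgeR 4.0.16 in R 4.3.3 (filterByExpr, TMM, quasi-likelihood test, two-sided, genotype as the only factor, Benjamini-Hochberg adjustment over all genes tested), and standard errors are the log2 fold change over the square root of F. Alternatives used DESeq2 1.42.0 and limma 3.58.1. KRAB and C2H2 patterns were searched in translated GENCODE transcripts, and GC content, fingers and seed matches are those of the transcript with the longest coding sequence. CPM use TMM scaling.

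The genes named are Ago2, the 8 highest members, those called, up to 6 in each direction whose groups do not overlap in CPM, examples from the lists, 3 on either side of the threshold, Trim28 and Setdb1. Zfp286, Zfp213 and the genes that DESeq2 called without wild-type replicate 4 were named after their values were seen. Same-numbered libraries deviated from their group means with r of -0.14, -0.05, 0.38 and 0.03 for numbers 1 to 4. Other pairs of libraries were not compared, so this cannot decide whether the numbers pair the libraries. The methods were run on simulated counts with known changes. These had the same spread for every gene and no library that stood apart or followed GC content. They therefore do not test the methods on a case like wild-type replicate 4.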

Additional observations from a re-analysis of the deposited data

Results flagged for a closer look

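A single distant value was looked for in 56 groups of 4 libraries (22 named genes on the log2(TPM + 0.1) scale and 6 sums or medians over members, each by genotype). Of these, 9 had one by Dixon's ratio, above its 95% critical value. Chance alone flags about 1 in 20 where groups are not picked by their values. Some of the genes here were picked by their values in these same libraries, so that rate does not apply to this list. In 7 of the 9 groups the distant value was that of wild-type replicate 4, at the low end. The ratio was 0.836 for Zfp367 (2.36 TPM, with the others of the group at 20.75 to 31.58), 0.850 for Zfp273 (0.20 against 3.07 to 4.71 TPM), 0.842 for Zfp345 (0.13 against 1.73 to 2.60 TPM), 0.831 for Zfp871 (1.98 against 39.5 to 72.0 TPM) and 0.903 for Zfp40 (0.12 against 4.76 to 6.68 TPM). The median deviation from the ΔAgo2 mean gave 0.835 for all members (-1.48 against -0.04 to 0.25 in log2 CPM) and 0.854 for those with a KRAB pattern (-2.10 against -0.03 to 0.33). These 7 share 1 library and are not separate observations.

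In the ΔAgo2 group the ratio was 0.859 for Zfp345, highest in replicate 1 (3.73 against 3.12 to 3.20 TPM), and 0.930 for Zfp941, lowest in replicate 4 (3.06 against 3.78 to 3.84 TPM).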

How the results depend on the processing

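Members were called in 2 of 32 settings. DESeq2 without wild-type replicate 4 called 7, 2 higher and 5 lower, and widening the rule to a mean TPM of at least 1 brought in 1 called gene, Zfp521. Over all settings the median log2 fold change ran from -0.11 to 0.46 for the members, from -0.22 to 0.60 for those with a KRAB pattern and from -0.14 to 0.23 for those without, so the sign of all 3 depends on the setting. When 1 library was left out these ranges were -0.08 to 0.12, -0.14 to 0.31 and -0.14 to -0.05. With limma on log2(TPM + 0.1) the median of all genes tested was itself at 0.23, and that of the members 0.23 above it. A replicate block left the members called at 0. Whether the replicate numbers pair the libraries is not given in the sources used here.

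Over the whole table, 42 genes were called with all libraries, 399 with DESeq2, 679 and 124 with DESeq2 and the GC correction, each without wild-type replicate 4, 76 with the GC correction, 68 with it and the replicate block, 10 and 3 with limma on log2(TPM + 0.1) and log2(TPM + 1), 257 with sample weights, 143 without a filter and 18 with the replicate block alone. Leaving out 1 library gave 1 to 113, the lowest without ΔAgo2 replicate 1, and thresholds of 0.01 and 0.1 gave 6 and 79. The cause was not tested.

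Of 524 alternative values for 22 named genes, 17 turned direction. Zfp445 was at 0.0097 with the GC correction and replicate block, 0.58 and 0.49 with limma on log2(TPM + 0.1) and log2(TPM + 1), 0.33 with limma-voom, 0.27 with the replicate block and 0.26 without wild-type replicate 3 (-0.48 to 0.26 with 1 library left out). Zfp871 was at 0.30, 0.19 and 0.069 with those limma fits in the same order, and Zfp40 at 0.30 with log2(TPM + 0.1) and 0.14 with limma-voom. Trim28 was at 0.10 without wild-type replicate 4, 0.11 there with DESeq2, 0.059 there with the GC correction, 0.11 there with the replicate block, and 0.13 with sample weights. Leaving out 1 library, Trim28 ran from -1.06 to 0.10. Setdb1 was at -0.033 with the GC correction without wild-type replicate 4. Zfp521 kept its direction and lost its call in 8 settings, with an adjusted p of 0.254 and 0.213 with limma on log2(TPM + 0.1) and log2(TPM + 1), 0.0510 with the replicate block, 0.115 to 0.135 without a ΔAgo2 library and 0.0670 without wild-type replicate 1. The fits without wild-type replicate 4 that combine it with another choice were added after seeing the data. Genes with low levels rest on few counts, which limits the precision of their fold changes.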
